A study of Homo sapiens with 24 samples.

Results

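THBD, ESM1 and CDH5 are 3 genes best known from blood vessel endothelium that were measured here in chondrocytes, 3 of the 62703 gene identifiers counted in each library. They were found by symbol and were chosen by their readout. Each was among the largest changes between untransfected cells and cells labelled as transfected with WNK2 in isotonic media. The values of that comparison, and of every comparison that reuses its libraries, are therefore given as a description without a test. All 3 were among the 16600 genes that passed the filter on low counts and were tested.

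The study sequenced poly(A) RNA of T/C-28a2 cells, an immortalised human chondrocyte line, in 24 libraries that fall into 6 groups of 4. WT Ctr and WT Sor are untransfected wild-type cells kept for 7 days in isotonic media or in media with 100 mM sorbitol, a sugar alcohol that raises osmolarity and so gives hyperosmotic stress. WNK2 trans Ctr and WNK2 trans Sor are wild-type cells that were exposed for 48 hours to a plasmid encoding WNK2, a kinase of the family that responds to osmotic and chloride changes, before the same media. WNK2- Ctr and WNK2- Sor are cells grown from single cells after a CRISPR deletion of exon 2 of WNK2, in the same media. The transfected cells were compared with untransfected and not with mock-transfected cells, so the plasmid and the transfection procedure cannot be told apart, and in the WNK2- cells the deletion and the clone cannot be told apart. All groups shared the cell line, the reduced-serum medium and the 7 days in it. The 48 hours of transfection before those days were particular to the transfected groups, and their part cannot be told apart from that of the plasmid. The study calls its replicates biological, and the labels do not say whether they came from separate cultures, so p-values measure the spread between these libraries.

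In endothelium the 3 genes serve different tasks. THBD encodes thrombomodulin, a surface receptor that binds thrombin and turns it from a clotting enzyme into the activator of protein C, an anticoagulant protease. ESM1 encodes endocan, a secreted proteoglycan with a dermatan sulfate chain that is known from growing vessel tips and responds to VEGF. CDH5 encodes VE-cadherin, the calcium-dependent adhesion protein of endothelial junctions, which binds catenins through its inner end. Chondrocytes sit in avascular cartilage, where none of these genes is a standard marker of the cell type.

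On GRCh38 with the GENCODE 29 annotation, THBD (ENSG00000178726) is a single-exon gene on the minus strand of chromosome 20, from 23045633 to 23049741. ESM1 (ENSG00000164283) lies on the minus strand of chromosome 5, from 54977864 to 55022671. CDH5 (ENSG00000179776) lies on the plus strand of chromosome 16, from 66366622 to 66404786. The merged exons span 4109 bases for THBD, 2695 bases for ESM1 and 6082 bases for CDH5. No annotated gene overlaps THBD or CDH5. AC034238.1 overlaps ESM1 on the same strand and held at most 5 counts in any library. Of the 3 promoters, that of ESM1 was in the RefSeq table used here. It is shown because ESM1 had the widest range of levels, as 30 bases from 34 to 5 bases before its RefSeq start (GRCh38.p14, chr5:54985598-54985627, minus strand), with TATAAA and ACGTG in capitals.
ESM1: tgTATAAAactcataaACGTGtaggcagag
These bases also fall in an untranslated region of a longer annotated transcript. Within the 250 bases before the start, searched on both strands, TATAAA occurred once, 32 bases before it, and 10.7% of 35116 promoters of that length held the motif. ACGTG occurred once, 18 bases before the start, against 18.5% of promoters, and GGAA, the core of ETS factor sites, was held by the promoter as by 92.7% of all. TGACTCA (4.2% of promoters), CCGGAAG (8.52%, which contains GGAA) and CACCC (54.7%) were not in this window.

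Total counts per library ran from 14153002 to 25664619. WNK2 was used to check the labels. It had 1217 to 2568 counts in the libraries labelled WT Ctr and 163 to 290 in those labelled WNK2 trans Ctr, so in isotonic media the counts went against the transfection label. With sorbitol they followed it, at 2237 to 3739 counts in WNK2 trans Sor and 266 to 314 in WT Sor. Libraries are therefore named by their labels throughout. The paper's supplement lists similar normalized WNK2 counts in all its wild-type groups, and reports no significant change with sorbitol or transfection. The low WNK2 counts here in WT Sor, as in WNK2 trans Ctr, differ from that listing, and the reason was not tested. WNK2- Ctr had 440 to 501 counts of WNK2 and WNK2- Sor 322 to 503. At 19.6 ± 2.51 CPM (SD, n = 4), WNK2- Sor was not below WT Sor at 16.5 ± 1.04 CPM. The WNK2 counts thus do not mark the deletion against WT Sor. Endothelial markers other than CDH5 summed to 113 to 225 CPM (counts scaled to library size, with TMM factors, and given for a library of 1000000) over the 22 listed genes, with 14 tested. The list was mixed. ECSCR had no count in any library, CLEC14A, EMCN, MMRN1, PLVAP, ICAM2 and NOS3 each stayed at 8 counts or fewer, and VWF reached 2.16 CPM, while the highest library had 150 CPM of EGFL7, 58.6 of FLT1, 57.1 of PECAM1, 23.2 of TIE1 and 10.4 of ROBO4. The 14 chondrocyte markers summed to 105 to 161 CPM in the groups of wild-type cells and 31.3 to 36.9 CPM in the WNK2- groups. HAPLN1 made up much of the sum, with means of 66.5 CPM in WT Sor and 117 in WNK2 trans Sor, so the sum does not follow the other markers. SOX9 had 0 counts in all 24 libraries. The paper measured SOX9 by qPCR in this cell line and lists it as not detected in its RNA-seq. A count of 0 thus need not mean absent RNA, and whether the counting lost reads was not tested. The 8 haematopoietic markers summed to 6.23 to 24.4 CPM and the 5 epithelial ones, which include keratins, to 608 to 1240 CPM. In bulk RNA, fewer cells of a type and less RNA per cell cannot be told apart.

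THBD spanned 29.2-fold between its highest and lowest group. The libraries labelled WNK2 trans Ctr had 346, 249, 294 and 310 CPM, a mean of 299.6 ± 40.4 (SD, n = 4). WT Sor followed at 112, 104, 131 and 127 CPM, and WT Ctr at 47.9, 48.5, 44.5 and 50.1 CPM. Neither group overlapped the other or WNK2 trans Ctr. The libraries labelled WNK2 trans Sor had 30.7, 23.1, 26.2 and 27.4 CPM, below all 4 of WT Ctr. WNK2- Sor, at 11.9, 13.8, 10.3 and 11.6 CPM, and WNK2- Ctr, at 8.87, 8.99, 11.4 and 11.8 CPM, lay lowest and overlapped. The order of the THBD levels was thus WNK2 trans Ctr, WT Sor, WT Ctr, WNK2 trans Sor and then the WNK2- groups, which did not differ beyond their spread.

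ESM1 ran in another order and over the widest range, 255-fold between group means. It was highest in WNK2- Sor, at 102, 97.0, 101 and 97.4 CPM, a mean of 99.5 ± 2.69 (SD, n = 4). The libraries labelled WNK2 trans Sor had 61.2, 67.4, 70.4 and 78.2 CPM, and those labelled WNK2- Ctr 16.6, 18.6, 14.6 and 17.3 CPM. These 3 groups were separate from each other and from all the rest. Levels were low in WT Sor, at 2.96, 2.67, 4.03 and 3.61 CPM, and in WT Ctr, at 2.76, 1.48, 2.36 and 3.98 CPM, and the groups overlapped. The WNK2 trans Ctr libraries held only 9, 6, 5 and 6 counts of ESM1. Their sum of 26 counts has an exact 95% Poisson interval of 17.0 to 38.1, which covers counting error only, and their mean was 0.390 ± 0.153 CPM. The 255-fold range therefore rests at its low end on few reads.

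CDH5 was highest where the transfection label and sorbitol met. The libraries labelled WNK2 trans Sor had 51.8, 43.6, 53.7 and 51.6 CPM, a mean of 50.2 ± 4.47 (SD, n = 4), above every other library. WNK2- Ctr followed at 12.8, 14.6, 13.8 and 12.6 CPM and WNK2- Sor at 12.4, 11.8, 11.5 and 8.96 CPM. WT Ctr had 8.34, 8.71, 10.8 and 14.1 CPM and WT Sor 9.19, 10.5, 9.06 and 8.78 CPM. WNK2- Ctr did not overlap WNK2- Sor, while WNK2- Sor, WT Ctr and WT Sor overlapped, and WT Ctr also reached into WNK2- Ctr. The libraries labelled WNK2 trans Ctr were lowest, at 1.42, 0.937, 1.04 and 1.19 CPM from 17 to 21 counts, and the highest and lowest group means differed 43.7-fold.

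**Figure D1:**
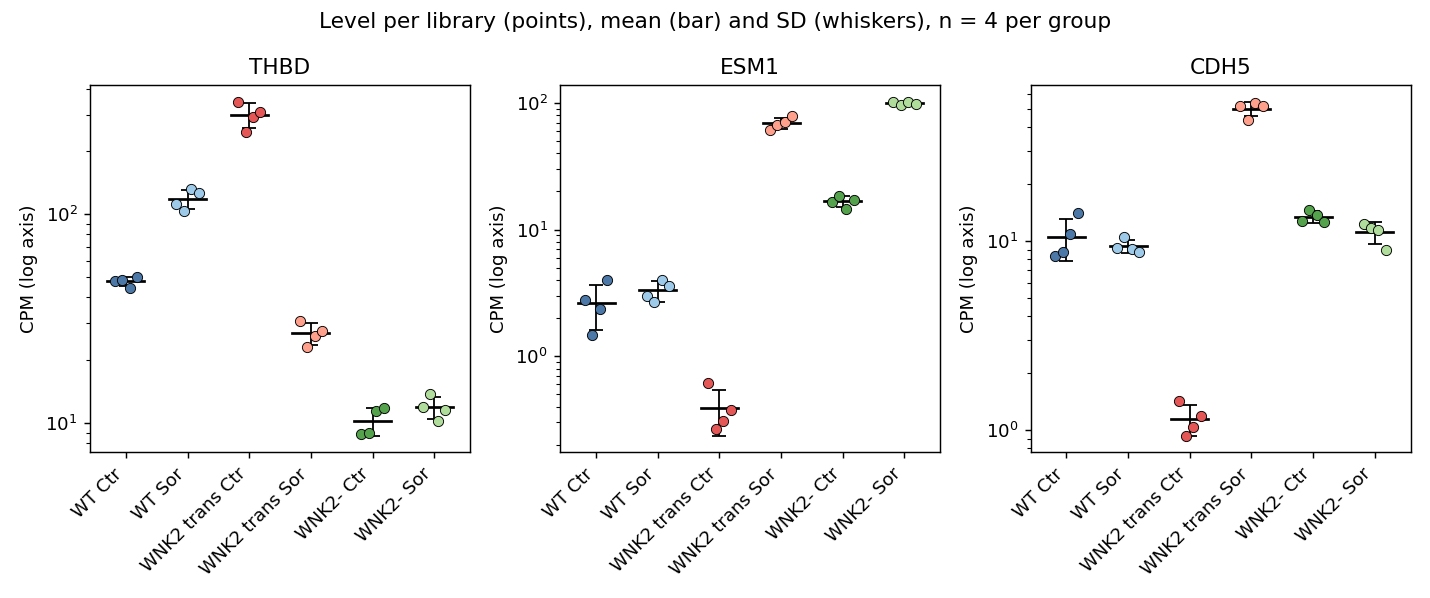
Level of THBD, ESM1 and CDH5 in each of the 24 libraries, in CPM on a log axis, by labelled group. Points are libraries, bars the mean of 4 libraries and whiskers the SD. THBD is highest and ESM1 and CDH5 are lowest in WNK2 trans Ctr, and CDH5 stands apart in WNK2 trans Sor at 50.2 CPM.

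Per kilobase of exon, which allows levels of different genes to be set side by side, THBD was the most abundant of the 3 in WT Ctr and WT Sor. In WT Ctr the level per kilobase was 11.6 ± 0.570 CPM for THBD, 0.981 ± 0.384 for ESM1 and 1.73 ± 0.434 for CDH5 (SD, n = 4 each). In WNK2- Sor the order was turned, with 36.9 ± 0.998 CPM per kilobase for ESM1 against 2.89 ± 0.355 for THBD and 1.83 ± 0.247 for CDH5. In WNK2 trans Ctr THBD reached 72.9 ± 9.84 CPM per kilobase, where ESM1 had 0.145 ± 0.0568 and CDH5 0.189 ± 0.0346.

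The choice of the 3 genes used WNK2 trans Ctr against WT Ctr. THBD was higher by 2.65 on the log2 scale, and ESM1 and CDH5 were lower, with log2 fold changes of -2.78 and -3.20. In that comparison 5.57% of tested genes were called higher and 6.98% lower at an adjusted p under 0.05 (edgeR's quasi-likelihood test), and nothing is read from this for genes that were selected on it. Put in order were the 1161 called genes without overlap of the groups and with a mean level of 3 or more. That level is in log2 CPM over all 24 libraries. THBD had the largest rise. IGFBP3, which encodes a carrier of insulin-like growth factors, came next at 2.53, NPAS3 at 2.49 and C7, a complement component, at 2.48. CDH5 was second among the falls, after WNK2 itself at -3.32, and ESM1 was the third. Just beyond ESM1 lay CSF3 (-2.56), SERPINB7 (-2.51) and CXCL8 (-2.50), of which CSF3 and CXCL8 encode secreted signals for neutrophils.

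Under sorbitol the transfection label was tested in 8 libraries outside the comparison that chose the genes. All 3 genes changed, each against the sign of its isotonic value as labelled. WNK2 counts go against the isotonic labels, and with those labels exchanged the signs would be the same in both media. The mean level used in the order above was taken over all 24 libraries, these 8 included. ESM1 had means of 2.64 CPM in WT Ctr and 0.390 in WNK2 trans Ctr, and its mean level was 5.01 (log2 CPM). It passed that filter through groups where it was high, so its tests in the sorbitol and WNK2- groups are not independent of the filter. CDH5 had means of 10.5 CPM in WT Ctr and 1.15 in WNK2 trans Ctr. Its mean level of 4.01 also drew on WNK2 trans Sor, where CDH5 was highest. The tests of CDH5 in these groups are thus not independent of the filter either. THBD fell from 119 ± 12.9 CPM in WT Sor to 26.9 ± 3.17 in WNK2 trans Sor, a log2 fold change of -2.14 (SE 0.12, edgeR adjusted p = 1.94e-12). ESM1 rose from 3.32 ± 0.618 to 69.3 ± 7.06 CPM, a log2 fold change of 4.37 (SE 0.18, edgeR adjusted p = 9.1e-15), the smallest p of all tested genes. CDH5 rose from 9.38 ± 0.751 to 50.2 ± 4.47 CPM, by 2.42 (SE 0.14, edgeR adjusted p = 4.16e-12). The groups did not overlap for any of the 3, as for 30.3% of all tested genes. Of all tested genes 16.1% were called higher and 15.5% lower. Whether the change differed between isotonic media and sorbitol was not tested, since the isotonic libraries chose the genes. Chondrocyte markers moved in the same comparison, with 7 of the 10 tested lower and 1 higher, and their part in these results was not tested. Without the 8 isotonic libraries of wild-type cells in the fit, chosen after the data were seen, the log2 fold changes were -2.15, 4.37 and 2.41.

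WNK2- cells under sorbitol shared the WT Sor libraries as their comparator. THBD fell by 3.31 on the log2 scale relative to WT Sor (SE 0.13, edgeR adjusted p = 1.23e-16), from 119 ± 12.9 to 11.9 ± 1.46 CPM. ESM1 rose by 4.90 (SE 0.18, edgeR adjusted p = 4.29e-17), a 29.8-fold difference. CDH5 did not pass the threshold, with a log2 fold change of 0.25 (95% interval -0.04 to 0.54, edgeR adjusted p = 0.152). Of all tested genes 23.7% were called higher and 22.7% lower, so that a call by itself was common here. All 7 chondrocyte markers called, of 10 tested, were lower in WNK2- Sor, and their part in these results was not tested.

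Within the WNK2- cells, sorbitol raised ESM1 alone of the 3 past the threshold. ESM1 rose 5.94-fold, from 16.7 ± 1.68 to 99.5 ± 2.69 CPM (log2 fold change 2.57, SE 0.15, edgeR adjusted p = 6.78e-12). THBD differed by 0.21 (95% interval -0.05 to 0.47, edgeR adjusted p = 0.300) and CDH5 by -0.27 (95% interval -0.55 to 0.02, edgeR adjusted p = 0.222). The CDH5 groups did not overlap, as for 28.4% of all tested genes, and the difference was not called. Called higher were 8.25% of all tested genes and called lower 6.64%.

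The remaining comparisons reuse libraries that chose the genes and are described only. Each rests on isotonic libraries whose WNK2 counts go against their labels. With those labels exchanged, the comparator of WT Sor and WNK2- Ctr would have 299.6, 0.390 and 1.15 CPM of THBD, ESM1 and CDH5. WT Sor had 119, 3.32 and 9.38 CPM in the same order, and WNK2- Ctr 10.3, 16.7 and 13.4 CPM. Which labels hold was not tested. WT Sor minus WT Ctr gave log2 fold changes of 1.31 for THBD, 0.35 for ESM1 and -0.16 for CDH5, and that of CDH5 became 0.02 without WT Ctr replicate 4. The value of ESM1 was 0.61 without WT Ctr replicate 4 and 0.16 without WT Ctr replicate 2. WNK2- Ctr minus WT Ctr gave -2.21 for THBD, 2.67 for ESM1 and 0.36 for CDH5. WNK2 trans Sor minus WNK2 trans Ctr gave -3.48, 7.50 and 5.46 in the same order. The last of these values for ESM1 is a fitted value against 26 counts in all and depends on the prior count of the fit.

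**Figure D2:**
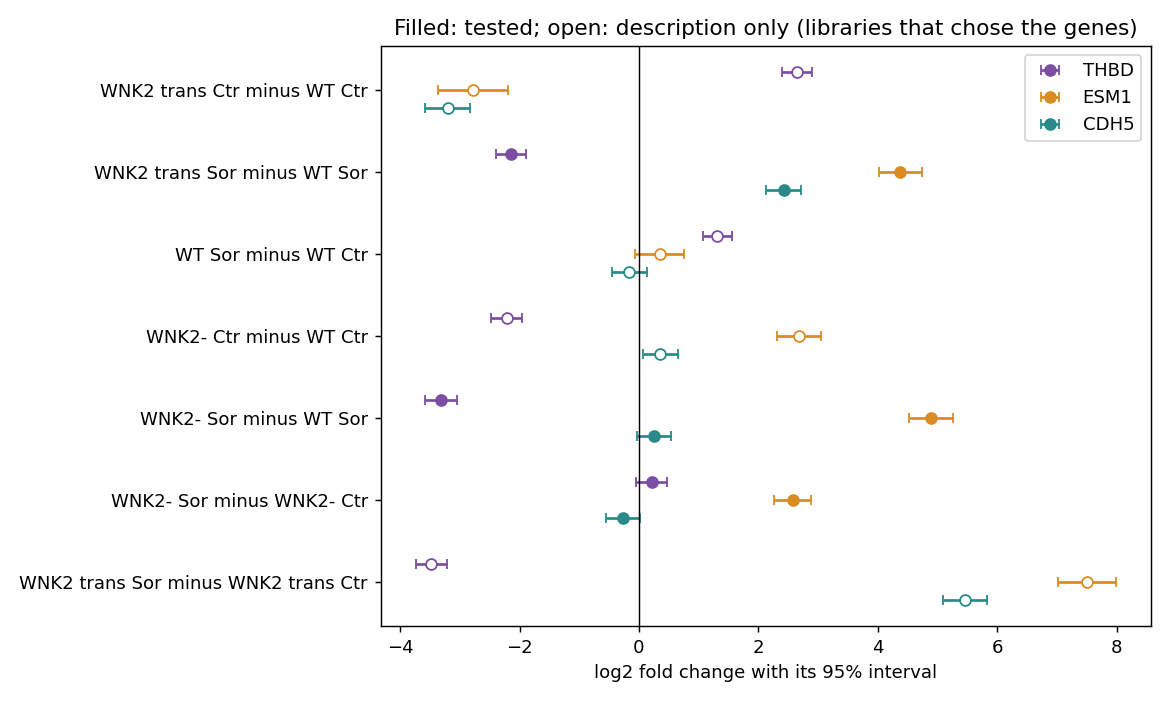
Log2 fold changes of THBD, ESM1 and CDH5 with their 95% intervals in 7 comparisons. Filled points were tested and open points are a description. Under sorbitol the transfection label goes with lower THBD (-2.14) and higher ESM1 (4.37) and CDH5 (2.42), against the signs of the open points in the row above, whose libraries have WNK2 counts that go against their labels.

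Over the 24 libraries, THBD and ESM1 had a Pearson correlation of log2 CPM of -0.85, THBD and CDH5 of -0.68 and ESM1 and CDH5 of 0.80. These are descriptions over libraries that share groups, and the 8 isotonic libraries of wild-type cells that chose the genes are among them. Of all tested genes, 97.3% had a higher correlation with THBD than ESM1 had, and 88.1% a higher one than CDH5 had. With ESM1, 6.39% of tested genes had a higher correlation than CDH5 had. The plots of THBD and ESM1 against CDH5 show where the pairs part: WNK2- libraries have CDH5 levels close to those of wild-type cells without the plasmid label, with THBD much lower and ESM1 much higher.

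**Figure D3:**
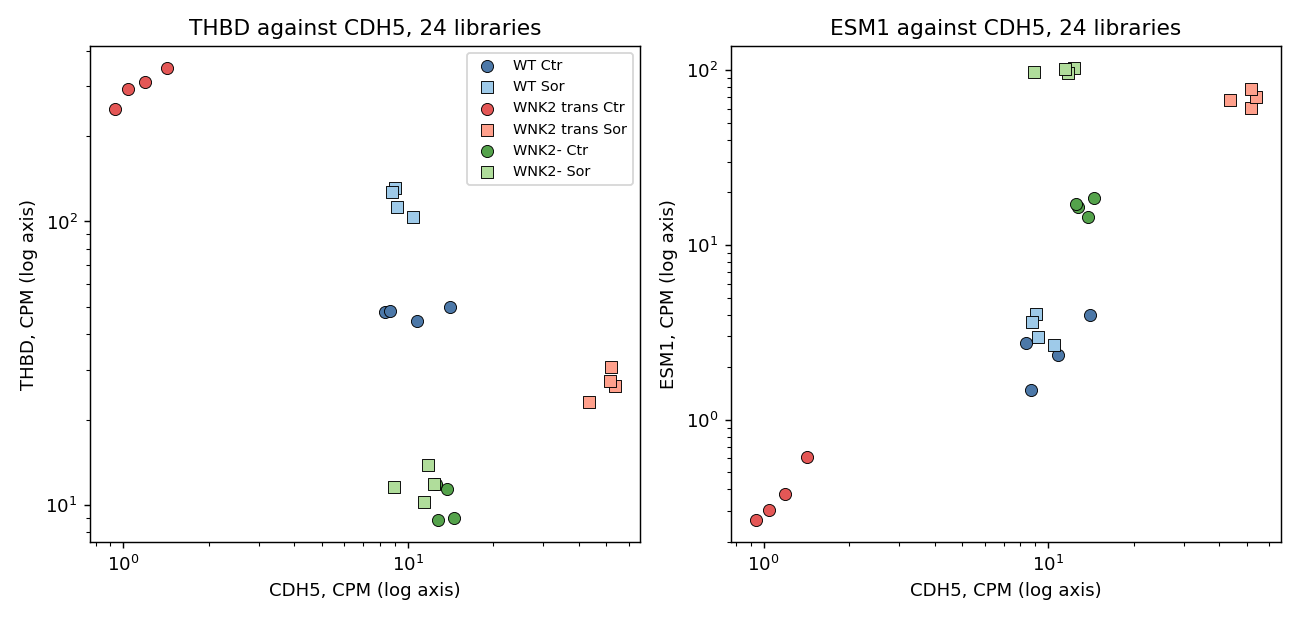
THBD (left) and ESM1 (right) against CDH5 in each library, in CPM on log axes, with circles for isotonic media and squares for sorbitol. WNK2 trans Ctr and WNK2 trans Sor lie at the ends of the CDH5 axis, at means of 1.15 and 50.2 CPM, while WNK2- and WT libraries lie between them and part along the other axis.

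By Pearson correlation of log2 CPM over the 24 libraries, the genes most like THBD were STAT3 (0.979), HRH1 (0.976), FER1L4 (0.972), POSTN (0.971) and MFAP4 (0.969). STAT3 encodes a transcription factor of cytokine signalling, HRH1 a histamine receptor and POSTN the matrix protein periostin. POSTN followed the order of THBD in wild-type cells, with means of 612 CPM in WNK2 trans Ctr, 372 in WT Sor, 229 in WT Ctr and 129 in WNK2 trans Sor. Most like ESM1 were NEDD4L (0.986), ARHGEF28 (0.984), MGLL (0.983), DOCK4 (0.982) and ZNF675 (0.982). NEDD4L, which encodes a ubiquitin ligase of membrane transporters and channels, had 330 CPM in WNK2- Sor, 263 in WNK2 trans Sor and 43.8 in WNK2 trans Ctr. Most like CDH5 were TMEM156 (0.964), TTC6 (0.957), ABTB3 (0.929), PDE5A (0.927) and LIF (0.925). By rank (Spearman) their correlations with CDH5 were lower, at 0.802, 0.757, 0.681, 0.903 and 0.817 in the same order. ABTB3 was also 7th, at -2.46, among the falls in the comparison that chose CDH5. LIF encodes a cytokine of the interleukin-6 family and had 195 CPM in WNK2 trans Sor against 45.1 in WNK2 trans Ctr.

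The wider endothelial programme was followed in 50 identity genes without the 3 described above. Of these 34 were tested, 16 stayed under 1 CPM in every library, and 4 (ECSCR, LYVE1, SELE and CALCRL) had no count. They did not move as a block. In WNK2 trans Sor against WT Sor 8 were called higher and 10 lower, beside 16.1% and 15.5% of all tested genes. Their median log2 fold change was 0.01, as over all tested genes. KDR, the main VEGF receptor, rose by 2.21 (SE 0.84, edgeR adjusted p = 0.0476) at levels under 1 CPM, and the transcription factor gene ETS2 rose by 2.11 (edgeR adjusted p = 4.56e-07). SOX18, which encodes a transcription factor of vessel development, fell, with a log2 fold change of -2.48 (edgeR adjusted p = 3.69e-05). PECAM1, a junction protein as CDH5 is, had 52.7 CPM in WT Sor and 50.4 in WNK2 trans Sor.

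In isotonic media the transfection label went with 6 higher and 6 lower identity genes, beside 5.57% and 6.98% of all tested genes. TIE1, a receptor tyrosine kinase of endothelium, fell most, with a log2 fold change of -2.20 (edgeR adjusted p = 3.66e-06), followed by ETS2 at -1.53 (edgeR adjusted p = 0.000556) and MYCT1 at -1.14 (edgeR adjusted p = 0.0467). The count of 12 fell to 7 without WT Ctr replicate 3, WT Sor replicate 4, WNK2 trans Ctr replicate 2, WNK2- Ctr replicate 4 or WNK2- Sor replicate 4, and to 6 without WNK2 trans Ctr replicate 4. In WT Sor against WT Ctr, where WNK2 was at 16.5 and 137 CPM although both are labelled untransfected, 9 were higher and 3 lower, while 11.4% of all tested genes were higher and 12.7% lower. MYCT1 (1.40), EPAS1 (1.12), the hypoxia-inducible factor of endothelium, and ERG (1.12), an ETS factor, were the largest of these rises, and the count of 12 fell to 7 without WT Sor replicate 3.

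Against the wild-type groups, and with sorbitol among themselves, the WNK2- cells had more identity genes called higher than lower. In WNK2- Ctr against WT Ctr 16 were higher and 6 lower, with a median of 0.59. Of all tested genes 20.7% were higher and 21.5% lower, with a median of 0.00. The WNK2 counts of WT Ctr, the comparator here, went against its label. KDR rose by 3.48 and MYCT1 by 2.78, from 0.120 to 1.35 CPM and from 0.802 to 5.61 CPM, while RAMP2, a partner of the calcitonin receptor-like receptor, also passed and was lower. In WNK2- Sor against WT Sor 16 were higher and 8 lower (median 0.73), beside 23.7% and 22.7% of all tested genes. KDR was at 4.81, MYCT1 at 3.82 and VCAM1, an adhesion protein for leukocytes, at -3.58. Sorbitol in WNK2- cells gave 10 higher and 2 lower (median 0.39), beside 8.25% and 6.64% of all tested genes. MYCT1 was at 2.44 and ROBO4, a guidance receptor of endothelium, at 1.88. VCAM1 was again lower, at -2.71 (SE 0.13, edgeR adjusted p = 9.65e-14), from 61.4 to 9.38 CPM. The endothelial marker sum was 151 to 161 CPM in WNK2- Ctr and, in WNK2- Sor, 161 to 184 CPM, within the range of the wild-type groups, and chondrocyte markers were lower in both, whose part in these counts was not tested.

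**Figure D4:**
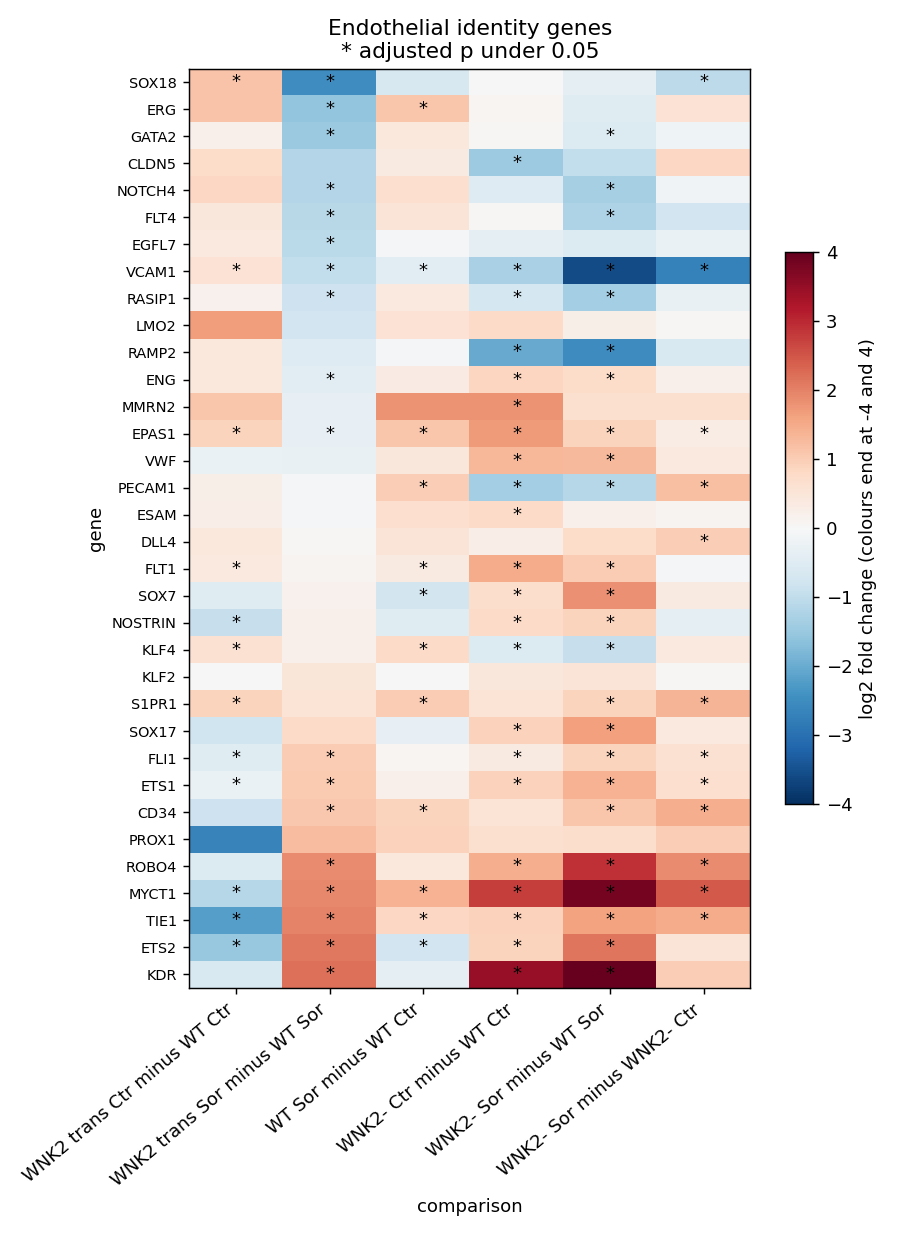
Log2 fold changes of the 34 tested endothelial identity genes (rows) in 6 comparisons (columns), ordered by WNK2 trans Sor minus WT Sor. Red is higher, blue lower, stars mark an adjusted p under 0.05, and the value of 4.81 for KDR lies beyond the end of the colours. Higher and lower genes are mixed in the transfection columns, and 16 of 34 are called higher in each of the WNK2- against WT columns.

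Around THBD, 35 genes of the protein C, thrombin and plasminogen systems were listed and 23 tested. F3, which encodes tissue factor, the starter of coagulation, was called in all 6 comparisons. It rose by 2.68 (SE 0.11, edgeR adjusted p = 1.11e-14) in WNK2 trans Sor against WT Sor and by 3.25 (edgeR adjusted p = 2.2e-17) in WNK2- Sor against WT Sor, where THBD fell. F3 was lower by -1.06 in WNK2 trans Ctr and higher by 2.37 in WNK2- Ctr, each against WT Ctr. PROCR, the receptor that presents protein C to the thrombin bound by thrombomodulin, had group means between 28.4 and 39.1 CPM. F13A1, the subunit of the clot cross-linking enzyme, changed by -3.70 with the transfection label in isotonic media and by 3.94 under sorbitol, at means of at most 5.03 CPM. Counts of higher and lower genes were 5 and 5 for the transfection label in isotonic media and 8 and 6 under sorbitol, where 5.57% and 6.98%, and 16.1% and 15.5%, of all tested genes were higher and lower. For sorbitol in wild-type cells they were 7 and 5, and for sorbitol in WNK2- cells 7 and 1. For WNK2- against wild-type cells they were 7 and 7 in isotonic media and 7 and 6 under sorbitol. The shares of all tested genes, higher and lower, were 11.4% and 12.7%, 8.25% and 6.64%, 20.7% and 21.5%, and 23.7% and 22.7% in the same order. They stand beside the lists that follow too. The count of 12 for sorbitol in wild-type cells fell to 7 without WT Ctr replicate 2, and that of 8 in WNK2- cells to 5 without WNK2- Ctr replicate 1 or 2 or WNK2- Sor replicate 1 or 3. The medians lay between 0.01 and 0.17. KLF2 and KLF4, flow-responsive regulators of THBD in endothelium, had group means of at most 17.0 CPM and of 14.1 to 40.7 CPM. CD93, whose lower coordinate lies 33.7 kb from that of THBD, stayed at 5 counts or fewer and was not tested.

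For ESM1, 42 genes of the VEGF axis and of chondroitin and dermatan sulfate synthesis were listed and 36 tested. Higher and lower were 9 and 10 in WNK2 trans Sor against WT Sor, with a median of -0.22, and 11 and 15 in WNK2- Sor against WT Sor, with a median of -0.25. APLN, a secreted peptide of tip cells, rose by 3.50 (SE 0.38, edgeR adjusted p = 1.1e-07) in the first, where HGF fell, at -2.08. XYLT1, which starts the sugar chain of proteoglycans, fell by 4.23 in the second (edgeR adjusted p = 2.81e-14), from 23.2 to 1.22 CPM. The ligand VEGFA had 348 CPM in WNK2 trans Sor and 117 to 182 CPM in the other groups, and VEGFC rose by 1.00 with sorbitol in WNK2- cells (edgeR adjusted p = 8.22e-08), where 5 genes were higher and 1 lower. The transfection label in isotonic media went with 8 higher and 3 lower and sorbitol in wild-type cells with 10 and 1. WNK2- against wild-type cells in isotonic media had 10 higher and 6 lower. The count of 11 in the first fell to 7 without WT Ctr replicate 2, and that of 6 for sorbitol in WNK2- cells fell to 3 without WNK2- Ctr replicate 1.

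Among 31 cadherins, catenins and junction partners, 22 were tested beside CDH5. In WNK2 trans Sor against WT Sor 3 were higher and 8 lower. The phosphatase gene PTPRB, whose protein binds VE-cadherin, rose by 1.99 (SE 0.27, edgeR adjusted p = 4.06e-06), CDH4 rose by 1.27 and CDH9 fell, at -1.29. CDH6 marked the WNK2- cells, with 7.69 CPM in WT Ctr and 0.012 in WNK2- Ctr, and with 12.2 in WT Sor and 0.054 in WNK2- Sor. CDH4 was at 180.3 CPM in WNK2- Ctr against 30.5 in WT Ctr. The list had 4 higher and 9 lower in WNK2- Sor against WT Sor, 6 and 6 in WNK2- Ctr against WT Ctr, 6 and 3 with sorbitol in wild-type cells, 2 and 3 with sorbitol in WNK2- cells, and 4 and 2 with the transfection label in isotonic media. The count of 5 for sorbitol in WNK2- cells fell to 3 without WNK2- Ctr replicate 1 or WNK2- Sor replicate 1.

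The genes beside the 3 on their chromosomes showed no change of like size in the comparison tested with the transfection label under sorbitol. Distances were taken between the lower coordinates of the genes, whatever their strand. Within 1 Mb, 10 genes near THBD were tested, of which 2 were higher and none lower, with log2 fold changes from -0.15 to 1.30. Near ESM1, 11 were tested, none higher and 2 lower, from -0.97 to 0.47. Near CDH5, 36 were tested, 3 higher and 9 lower, from -0.92 to 1.44. Of all tested genes 16.1% were higher and 15.5% lower in this comparison. The nearest tested genes on either side were FOXA2 and AL390037.1 for THBD, SNX18 and CDC20B for ESM1, and AC092138.2 and LINC00920 for CDH5. LINC00920 starts 41.9 kb from CDH5 and changed by -0.18 (edgeR adjusted p = 0.46), while CDH5 rose by 2.42. Larger changes of neighbours were seen elsewhere. In WNK2- Sor against WT Sor, 6 of the 10 near THBD were higher and none lower, up to 3.51 for CST1. Of all tested genes 23.7% were higher and 22.7% lower there. In WNK2 trans Ctr against WT Ctr, 2 near THBD were higher and 2 lower, down to -2.34 for LINC00261, beside 5.57% and 6.98% of all tested genes.

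**Figure D5:**
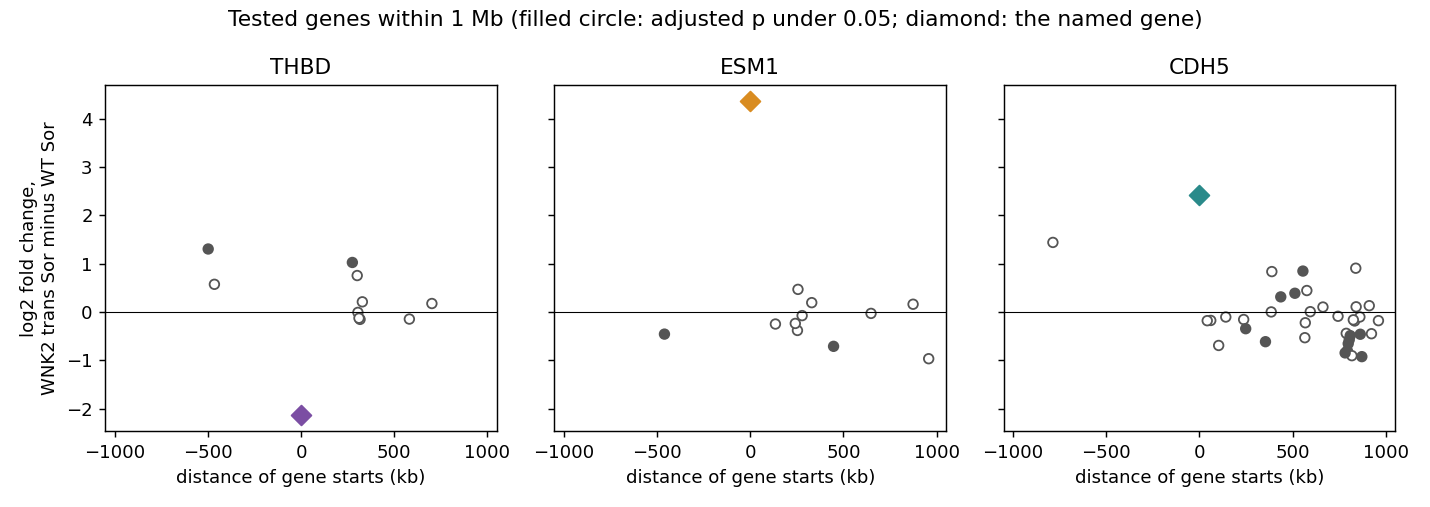
Log2 fold change in WNK2 trans Sor minus WT Sor of the tested genes within 1 Mb of THBD, ESM1 and CDH5, against distance in kb. The gene starts on the axis are the lower coordinates, whatever the strand. Diamonds are the named genes, at -2.14, 4.37 and 2.42, and circles their neighbours, filled where the adjusted p is under 0.05. The neighbours lie between -0.97 and 1.44.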

How the data were processed

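RNA was measured in 24 libraries, 4 in each of 6 groups named by their GEO labels. The authors deposited raw read counts per Ensembl gene, made from poly(A) libraries with no normalization. The submitters' processing notes list FastQC 0.11.9, HISAT2 2.2.1, HTSeq 2.0.2, DESeq2 1.38.3 and GRCh38. The annotation and the strand setting of the counting are not given in the sources used here. No file was left out.

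Here the counts were analysed in R 4.3.3 with edgeR 4.0.16 and limma 3.58.1. The filter on low counts was filterByExpr with a minimum of 10 per gene and of 15 in total. After TMM scaling, 1 quasi-likelihood model of edgeR held a mean for each of the 6 groups. Adjusted p-values are Benjamini-Hochberg over the 16600 tested genes in each comparison, with a threshold of 0.05. A gene was called where it passed. CPM use TMM effective library sizes, log2 CPM a prior count of 2. Total counts of 14153002 to 25664619 set the precision, and intervals of counts cover counting error only. Replicates of a group differed by more than sampling noise (chi-square per degree of freedom 2.24 to 60.8 over 36 pairs). Of 62703 identifiers, 58279 were in GENCODE 29 and 42300 had a symbol of their own.

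The 3 genes and all lists were chosen with earlier results of these data known. Named genes were the 3, WNK2, at most the 3 called genes with the largest change per list and comparison, role genes (PROCR, KLF2, KLF4, PECAM1, VWF, CD93, VEGFA), the 5 genes most correlated with each, the genes next in the order of change, and the nearest tested neighbours. Some genes this rule takes are not reported here. SOX9 and the endothelial markers given came from the marker lists, the most abundant of them chosen after values were seen. Levels set beside them outside that rule, such as CDH4 in the WNK2- groups, were chosen after values were seen. Marker sums of haematopoietic (8 genes) and epithelial (5 genes) lists were also taken. Alternatives were DESeq2 1.42.0, RLE and upper-quartile factors, a fit of only the groups compared, no filter, 10 counts or more in each library, a replicate block, each library left out in turn and, added later, a fit without the 8 isotonic libraries of wild-type cells.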

Additional observations from a re-analysis of the deposited data

Results flagged for a closer look

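The difference between media in the change with the transfection label stands out for all 3 genes, because, as labelled, the groups parted one way in isotonic media and the other way under sorbitol. The log2 fold change under sorbitol less that in isotonic media was -4.79 for THBD, 7.15 for ESM1 and 5.62 for CDH5. For THBD the same -4.79 is the change with sorbitol under the transfection label less that without it. These differences were not tested, since the isotonic libraries chose the genes. They rest on the labels of the isotonic libraries, which the WNK2 counts went against, and with those labels exchanged the 3 genes would move the same way in both media.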

How the results depend on the processing

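For THBD, ESM1 and CDH5, each of the 9 tests kept its direction and its side of the threshold with no filter, upper-quartile or RLE factors, DESeq2, the compared groups alone, the replicate block, each library left out and the fit without the 8 isotonic libraries of wild-type cells; THBD and CDH5 did so with at least 10 counts in every library too, a filter that does not keep ESM1. The described log2 fold changes moved by less than 1 SD between replicates and kept their sign, except that of CDH5 in WT Sor minus WT Ctr, which ran from -0.25 to 0.02 with 1 library left out and turned to 0.019 without WT Ctr replicate 4. That of ESM1 in the same comparison ran from 0.16 to 0.61. The replicate numbers share only a number (mean correlation of same-numbered libraries -0.00 over 60 pairs, 10 of them over 0.1, and 9 of 24 libraries closest to their own number), and with the replicate block ESM1 in WNK2 trans Sor minus WT Sor was 4.38, with no call changed and no count moved by over 1.5 times.

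Counts depended more on the processing, and where not set by fewer genes tested the cause was not tested. With the compared groups alone, all genes called went from 2082 to 747 for WNK2 trans Ctr minus WT Ctr and from 2473 to 4824 for WNK2- Sor minus WNK2- Ctr. The same fit gave, in the first, 5 endothelial identity, 6 protein C system and 4 VEGF axis genes, in WT Sor minus WT Ctr 7 and 6 of the first pair of lists, and in WNK2- Sor minus WNK2- Ctr 8 cadherins and 14 VEGF axis genes. With no filter, 7 endothelial genes were called in WNK2 trans Ctr minus WT Ctr and 5 protein C system genes in WNK2- Sor minus WNK2- Ctr. With at least 10 counts in every library, where fewer were tested, endothelial calls were 7 for WNK2 trans Ctr minus WT Ctr, 8 for WNK2 trans Sor minus WT Sor, 13 for WNK2- Ctr minus WT Ctr, 14 for WNK2- Sor minus WT Sor and 5 for WNK2- Sor minus WNK2- Ctr. Without the 8 isotonic libraries the VEGF axis count in WNK2- Sor minus WNK2- Ctr was 10. With each library left out in turn, counts ranged from 6 to 13 (endothelial) and 7 to 13 (VEGF axis) for WNK2 trans Ctr minus WT Ctr, from 7 to 13 for both endothelial and protein C genes in WT Sor minus WT Ctr, and from 5 to 9 (protein C), 3 to 6 (cadherins) and 3 to 8 (VEGF axis) in WNK2- Sor minus WNK2- Ctr. Other scalings moved the median of all genes by under 0.1. Depth limits ESM1 in WNK2 trans Ctr, with 26 counts.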
